A study of Mus musculus and Homo sapiens with 24 samples.

Results

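Fibronectin, SPARC and 8 further secreted matrix genes were followed through the differentiation of a human and a mouse skeletal myoblast line. The 10 genes are FN1 (fibronectin), SPARC (also called osteonectin), THBS1, THBS2 and THBS4 (thrombospondins), TNC (tenascin C), POSTN (periostin), CILP (cartilage intermediate layer protein), CTHRC1 (collagen triple helix repeat containing 1) and FBLN1 (fibulin 1). They were taken by symbol, ignoring case, and were 10 of the 58735 genes in the human table and 10 of the 56748 in the mouse table. The set was drawn up with its levels over the 3 days of each line in view, so levels and fold changes of these 10 genes are given here as a description. No p-value is given for them, and the number that the fit over all genes called is stated once, beside the share of all genes called. Symbols are written in capitals for both lines.

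LHCN-M2, a human myoblast line immortalised with TERT and CDK4, was sampled at days 0, 1 and 12 of differentiation, and the mouse myoblast line C2C12 at days 0, 1 and 6. Each line and day had 4 libraries of polyadenylated RNA, 24 in all, and every sample in every group carried the genotype label control, with no further treatment named in the labels. Each line is a single established line, and the labels do not say whether the 4 libraries of a group came from separate cultures, so the SDs and p-values here hold only the variation among these libraries, possibly technical. Library totals ran from 33030258 to 48546621 counts in LHCN-M2 and from 32795699 to 43827517 counts in C2C12. A pair of LHCN-M2 libraries stood apart on the third principal component of log2 CPM: replicate 2 of day 0 had a score of -72.5, while its group otherwise scored 19.1 to 29.95, and replicate 1 of day 12 had -22.3, while its group otherwise scored 4.41 to 9.27. Fold changes of FN1, THBS1, THBS4, TNC and CTHRC1 without them are given beside the results. Levels are CPM, counts relative to the library total scaled by the TMM method of edgeR, as mean ± SD over n = 4 libraries, and fold changes are log2 values of edgeR with their standard error (SE). A gene is called when its edgeR adjusted p is under 0.05.

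Fibronectin is a fibril-forming glycoprotein that cells assemble through integrin alpha 5 beta 1 and to which collagens and many other matrix proteins bind. Matricellular proteins such as SPARC, the thrombospondins, tenascin C and periostin are secreted into the matrix but are known more for modulating the contact of cells with collagen, integrins and growth factors than for carrying load. Several of them are abundant in embryonic, healing and regenerating tissue, muscle included, where myoblasts as well as fibroblasts can make them.

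The sequences 5′ of 3 mouse genes of the set are shown because these genes differed in course in C2C12: CILP was the gene of the set with the largest increase, and POSTN and FBLN1 were lowest at day 6. The windows run from 250 bases before to 50 bases after the transcription start of RefSeq on GRCm38.p6, all on the plus strand: chr9:65264930-65265229 for CILP, chr3:54360857-54361156 for POSTN and chr15:85205699-85205998 for FBLN1. Capitals mark the E-box letters CANNTG, the core that MYOD and related muscle factors can bind, and the letters TATAAA, both searched on both strands.
Cilp: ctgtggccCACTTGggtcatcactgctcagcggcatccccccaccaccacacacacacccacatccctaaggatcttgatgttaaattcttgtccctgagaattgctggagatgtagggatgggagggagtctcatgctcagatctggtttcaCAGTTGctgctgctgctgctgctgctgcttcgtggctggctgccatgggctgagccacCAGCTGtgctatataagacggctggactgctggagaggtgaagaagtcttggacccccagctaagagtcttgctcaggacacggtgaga
Postn: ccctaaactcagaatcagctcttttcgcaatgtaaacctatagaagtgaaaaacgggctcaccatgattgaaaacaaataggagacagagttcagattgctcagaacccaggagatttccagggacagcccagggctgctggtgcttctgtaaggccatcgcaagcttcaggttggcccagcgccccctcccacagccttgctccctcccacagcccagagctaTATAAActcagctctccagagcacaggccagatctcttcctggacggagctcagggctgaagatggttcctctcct
Fbln1: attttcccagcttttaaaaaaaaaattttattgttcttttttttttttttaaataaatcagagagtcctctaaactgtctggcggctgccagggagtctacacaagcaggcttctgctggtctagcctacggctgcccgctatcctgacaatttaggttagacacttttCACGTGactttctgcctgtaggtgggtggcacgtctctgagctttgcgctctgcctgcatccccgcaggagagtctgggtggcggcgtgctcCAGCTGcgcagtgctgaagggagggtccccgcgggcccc
The CILP window held 3 E-boxes, the FBLN1 window 2 and the POSTN window 0, while the POSTN window held 1 TATAAA that began 26 bases before the start. In both CILP and FBLN1, 1 of the E-boxes read CAGCTG. Of 32851 mouse windows of the same length, 72.3% held a CANNTG, 16.3% a CAGCTG and 13.6% a TATAAA on either strand, a CAGCTG being also a CANNTG. A match is a description, not a site. Entries were found for 7 of the 10 genes. Of the other 4 windows, SPARC held 3 E-boxes, 1 of them CAGCTG, TNC held 3, and THBS2 and THBS4 held 2 each. The TNC and THBS2 windows also held 1 TATAAA each, on either strand, that began 126 bases before the start. THBS4 had no counts in C2C12. Whether the number of E-boxes goes with the course of a gene in C2C12 was not tested.

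Together the 10 genes took a few percent of all counts in each line, with means in LHCN-M2 that differed little beside the spread of day 0, and with the lowest share of C2C12 at day 6. In LHCN-M2 they held 2.96% ± 0.687 of the counts at day 0, 2.79% ± 0.0850 at day 1 and 3.19% ± 0.274 at day 12 (SD, n = 4 libraries each). In C2C12 they held 1.73% ± 0.182 at day 0, 2.08% ± 0.0931 at day 1 and 1.24% ± 0.0499 at day 6. Fibronectin, SPARC and THBS1 made up 99.1%, 98.7% and 97.9% of those counts over the 3 days of LHCN-M2, and 88.7%, 91.7% and 90.1% over the 3 days of C2C12. These are bulk libraries, so fewer cells of a type and less RNA per cell cannot be told apart in any of these values. The human and mouse reads have different genomes and gene models behind them, so CPM values are compared within a line and only changes between the lines.

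**Figure D1:**
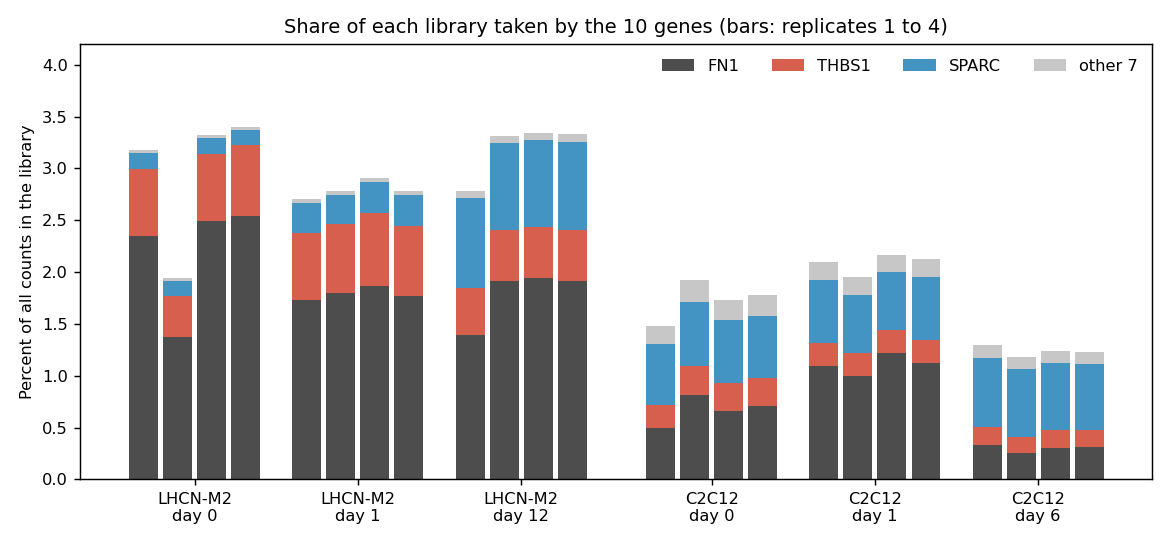
Percent of all counts in a library (vertical axis) taken by FN1, THBS1, SPARC and the sum of the other 7 genes, 1 stacked bar per library, grouped by line and day. The LHCN-M2 bars lie between 1.94% and 3.40%, with replicate 2 of day 0 the lowest, and the SPARC segment widens from day to day while the C2C12 bars are lowest at day 6.

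Beside these genes, summed muscle genes were higher at the later days of both lines, and the summed fibroblast list was highest at the last day of LHCN-M2 and lowest at the last day of C2C12. The 7 genes of differentiated muscle (MYOG, MYH3, ACTA1, CKM, MYMK, TNNT3 and TTN) had a sum per LHCN-M2 library of 5.62 to 11.2 CPM (day 0), 162 to 205 CPM (day 1) and 3894 to 5164 CPM (day 12). In C2C12 the same sum was 16.0 to 21.9 CPM (day 0), 77.0 to 107 CPM (day 1) and 1925 to 2137 CPM (day 6). The myoblast list (MYF5, MYOD1, DES, PAX7, CDH15 and CHRNA1), which defines the labelled cell type, summed to 1160 to 1579, 2571 to 2987 and 3250.0 to 3552 CPM over the days of LHCN-M2 and to 301 to 319, 479 to 509 and 1723 to 1905 CPM over those of C2C12. Of that list, PAX7 was at 0 in LHCN-M2 and under 1 CPM in C2C12, and the other 5 were present. MYF5 went against the sum in LHCN-M2, with means of 268, 64.5 and 14.2 CPM at days 0, 1 and 12. From day 1 to day 12 of LHCN-M2, MYOD1 also fell, from 261 to 117 CPM. CDH15 stood at 305 ± 24.3 and 285 ± 12.1 CPM on those days. DES rose from 1304 to 1873 CPM and CHRNA1 from 908 to 1087 CPM. The 8 fibroblast genes (PDGFRA, THY1, DCN, LUM, COL1A1, COL1A2, COL3A1 and TCF21) had a sum per LHCN-M2 library of 10499 to 10870.0 CPM (day 0), 14485 to 16806 CPM (day 1) and 24174 to 25182 CPM (day 12), with 7 of 8 at 1 CPM or more. In C2C12 they summed to 14384 to 16809, 14187 to 15465 and 10657 to 11132 CPM at days 0, 1 and 6, with THY1 and TCF21 at 0 on days 0 and 6. COL1A1 and COL1A2 led the LHCN-M2 sum and COL3A1 and COL1A2 the C2C12 sum, collagen genes that myoblasts also express. Not every gene of the list followed its sum. In C2C12, COL1A1, COL1A2 and PDGFRA were lowest at day 6, while COL3A1 was alike at days 0 and 6. DCN had means of 9.90, 157 and 288 CPM there at days 0, 1 and 6, and LUM 0.0151, 1.57 and 9.21 CPM. In LHCN-M2, THY1 went against the sum, with means of 199, 145 and 61.4 CPM at days 0, 1 and 12. Smooth muscle and pericyte genes summed to 122 to 143, 272 to 313 and 508 to 566 CPM in LHCN-M2 (6 of the 7 matched, 4 at 1 CPM or more), with MYH11 and CNN1 under 1 CPM, and to 1861 to 2028, 2797 to 3489 and 1520 to 1717 CPM in C2C12 (5 of 7 at 1 CPM or more), with MYH11 and RGS5 under 1 CPM. CSPG4 went against that sum in LHCN-M2, with means of 70.9, 35.9 and 34.7 CPM at days 0, 1 and 12. Tendon genes (SCX, TNMD, MKX and KERA) summed to 1.68 to 3.84, 3.27 to 4.17 and 12.996 to 18.5 CPM in LHCN-M2, with TNMD at 0, and to 39.9 to 51.6, 51.8 to 61.6 and 104 to 125 CPM in C2C12, with KERA at 0. In LHCN-M2 the mean of MKX was 0.482 CPM at day 0 and 14.5 CPM at day 12, while SCX went from 1.92 to 0.831 CPM. In C2C12 SCX went from 32.9 CPM at day 0 to 114 CPM at day 6, while MKX went from 13.5 to 2.42 CPM. Endothelial, immune and adipocyte genes summed to at most 19.4, 2.61 and 9.30 CPM in any LHCN-M2 library, with CDH5 and ADIPOQ at 0, and to at most 1.48, 24.01 and 18.8 CPM in any C2C12 library, with CDH5 and PTPRC under 1 CPM. The part of any of these lists in the levels of the 10 genes was not tested.

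FN1, the gene of fibronectin, was the most abundant transcript of the set per counted read in LHCN-M2 at every day, and in C2C12 it was highest at day 1 and lowest at day 6. In C2C12 the libraries held 4925, 8005, 6527 and 6971 CPM at day 0, 10744, 9848, 12075 and 11080.5 CPM at day 1 and 3414, 2653, 3141 and 3166 CPM at day 6. All 4 libraries of day 1 lay above those of day 0, and all 4 of day 6 below them. The log2 fold change was 0.73 (SE 0.10) for day 1 against day 0, -1.09 (SE 0.10) for day 6 against day 0 and -1.82 (SE 0.10) for day 6 against day 1. In LHCN-M2 the libraries held 23753, 14599, 25122 and 25853 CPM at day 0, 17072, 17458, 18434 and 17308 CPM at day 1 and 13754, 18984, 19471 and 19129 CPM at day 12. The low values of day 0 and day 12 belong to the pair of libraries that stood apart, and the ranges of day 0 and day 12 overlapped. The fold change of day 1 against day 0 was -0.35 (SE 0.15) and that of day 12 against day 0 -0.32 (SE 0.15). Without both libraries that stood apart they were -0.48 and -0.35, and day 12 stood above day 1 by 0.13, against 0.02 with all libraries. Leaving out only replicate 2 of day 0 gave -0.49 for day 1 and -0.47 for day 12 against day 0. In the human table FN1 spans chr2:215360440-215436172 on the minus strand (GRCh38 per the labels, whole gene).

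SPARC, a calcium- and collagen-binding protein, showed the steadiest increase of the set in LHCN-M2 and nearly constant levels in C2C12. In LHCN-M2 it stood at 1590.1, 1580.4, 1516 and 1510.1 CPM at day 0, 2927, 2688, 3022 and 2896 CPM at day 1 and 8595, 8267, 8427 and 8526 CPM at day 12. No libraries of different days overlapped, and each day's SD was small beside the steps between days. Day 1 stood above day 0 by 0.90 (SE 0.05) on the log2 scale, day 12 above day 1 by 1.55 (SE 0.06), and day 12 above day 0 by 2.45 (SE 0.06), a 5.46-fold difference. In C2C12 the means were 5984 ± 53.9 CPM at day 0, 5721 ± 224 CPM at day 1 and 6644 ± 136 CPM at day 6. The 4 libraries of day 6 ranged over 6514 to 6774 CPM, above the 5930.4 to 6041 CPM of day 0, and the log2 difference was 0.15 (SE 0.04). That small difference depended on the scaling: with a stricter filter on low counts, which moved the median of the 10116 genes tested both ways by -0.11, it was 0.04. Day 1 lay just below day 0, at -0.06 (SE 0.04). Per kilobase of the deposited gene length, SPARC ranked 83rd of all genes of LHCN-M2 at day 0, 41st at day 1 and 11th at day 12, and between 7th and 10th on every day of C2C12. The human gene lies at chr5:151661096-151687165 on the minus strand.

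**Figure D2:**
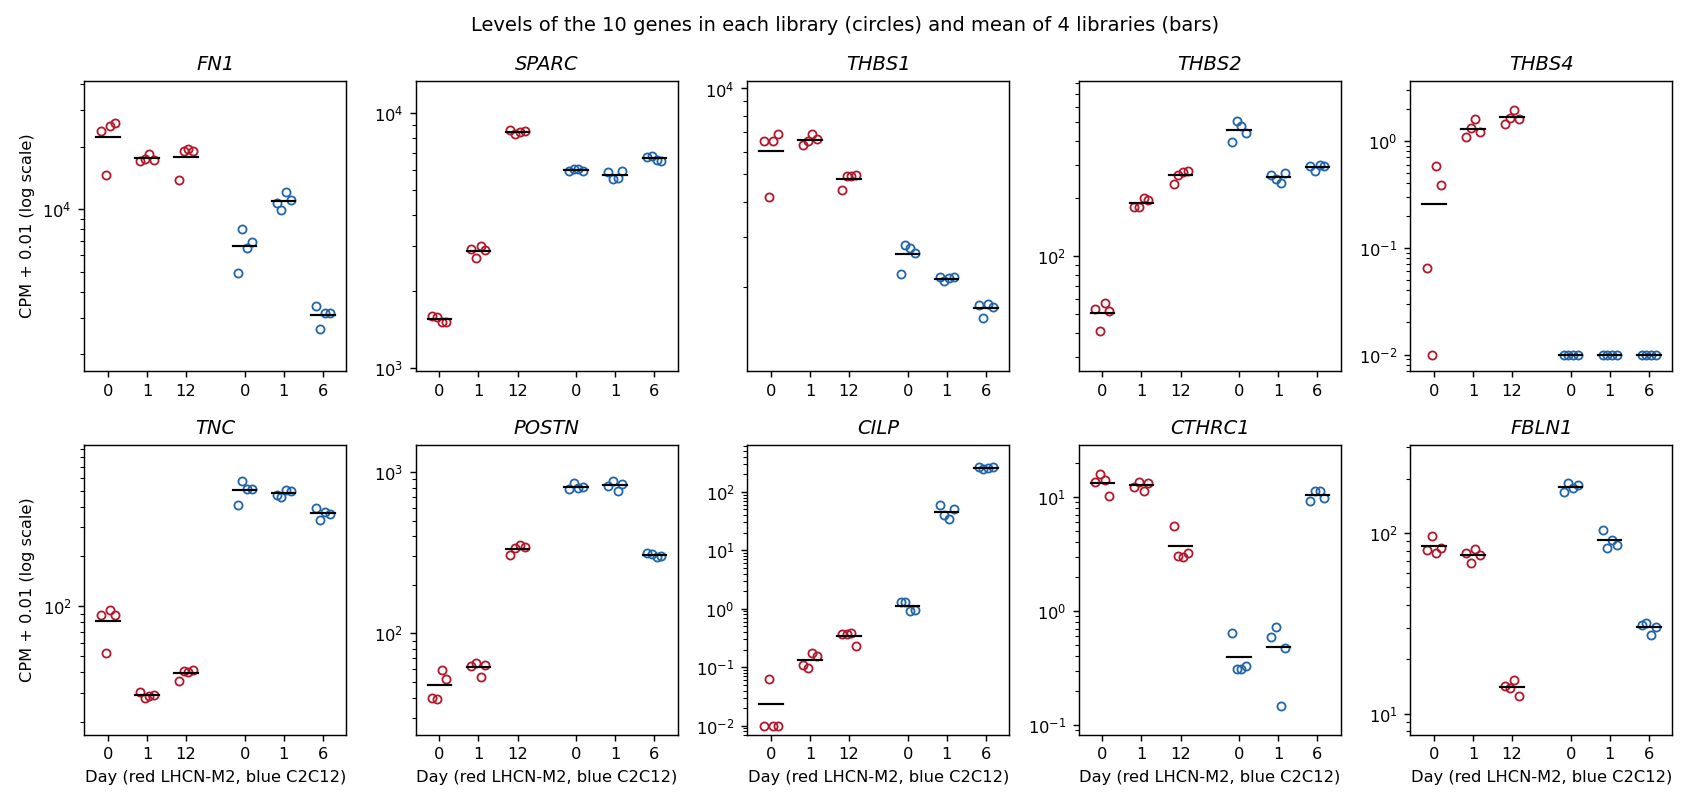
Level of each of the 10 genes in CPM on a log scale (vertical axis, a small constant is added so that 0 can be drawn) against the day, for LHCN-M2 in red and C2C12 in blue. Circles are libraries and bars the mean of 4. The 4 SPARC libraries of LHCN-M2 day 12 sit between 8267 and 8595 CPM, far above those of day 0, while CILP climbs over the 3 days of C2C12 and THBS4 lies at 0 there. Heights are not comparable between the lines.

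The 3 thrombospondins, large oligomeric glycoproteins that bind calcium, collagen and cell-surface receptors, differed from each other in level and course. THBS1, an activator of latent TGF-beta and a ligand of CD36 and CD47, was the most abundant of them in both lines. In C2C12 the libraries held 2219, 2821, 2751 and 2648 CPM at day 0, 2165, 2095, 2155 and 2163 CPM at day 1 and 1735, 1559, 1749 and 1707 CPM at day 6, with log2 differences of -0.28 (SE 0.06) for day 1 against day 0 and -0.63 (SE 0.06) for day 6 against day 0. The day 6 libraries all lay below those of both earlier days. In LHCN-M2 they held 6524, 4167, 6537 and 6891 CPM at day 0, 6306, 6548, 6901 and 6629 CPM at day 1 and 4405, 4909, 4922 and 4961 CPM at day 12. Replicate 2 of day 0 lay below every day 12 library. The difference of day 12 from day 0 was -0.33 (SE 0.12), -0.41 without the pair that stood apart. That of day 12 from day 1 was -0.46 (SE 0.12), with no overlap between libraries.

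THBS2, which lacks the TGF-beta activating sequence of THBS1 and is known for limiting vessel growth and collagen fibril size, was higher at the later days of LHCN-M2 and lower at the later days of C2C12. In LHCN-M2 the libraries held 52.8, 40.8, 56.7 and 52.1 CPM at day 0, 179.9, 179.6, 200.5 and 195 CPM at day 1 and 237, 264, 275 and 278 CPM at day 12. No 2 days overlapped, and most of the difference was present at day 1: the log2 fold change was 1.90 (SE 0.10) for day 1 against day 0, 0.48 (SE 0.10) for day 12 against day 1 and 2.38 (SE 0.10) for day 12 against day 0. The C2C12 libraries held 393, 505, 477 and 436 CPM at day 0, 264, 253, 242 and 270.2 CPM at day 1 and 294, 278, 298 and 296 CPM at day 6. Every library of the later days lay below every library of day 0, with log2 differences of -0.82 (SE 0.06) at day 1 and -0.64 (SE 0.06) at day 6. The difference between day 6 and day 1, 0.18 (SE 0.06), was small beside that from day 0.

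THBS4, a thrombospondin of tendon, heart and muscle, was close to the detection limit in LHCN-M2 and not detected in C2C12. Its counts in LHCN-M2 were 2, 0, 22 and 16 at day 0, 44, 59, 79 and 50 at day 1 and 63, 54, 74 and 71 at day 12. All libraries of the later days lay above those of day 0, and the mean level went no higher than 1.65 ± 0.212 CPM at day 12. The log2 differences from day 0 were 2.35 (SE 0.62) at day 1 and 2.70 (SE 0.62) at day 12, and without the pair that stood apart they were 1.97 and 2.38. Days 12 and 1 overlapped. In C2C12 the gene had 0 counts in all 12 libraries. A count of 0 allows up to 3 counts over the 4 libraries of a group, which is 0.0210 CPM at day 0, 0.0181 CPM at day 1 and 0.0192 CPM at day 6, counting error only.

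TNC, a large hexameric glycoprotein that interferes with adhesion to fibronectin, was lower at both later days of LHCN-M2 and at day 6 of C2C12. In LHCN-M2 the libraries held 89.0, 51.9, 95.1 and 88.8 CPM at day 0, 30.3, 27.7, 28.6 and 29.1 CPM at day 1 and 35.3, 40.7, 40.1 and 41.2 CPM at day 12. Day 0 lay above both later days without overlap, although its replicate 2, one of the libraries that stood apart, was low. The log2 difference was -1.49 (SE 0.15) for day 1 and -1.05 (SE 0.15) for day 12 against day 0, and -1.63 and -1.14 without the pair that stood apart. Day 12 stood above day 1 by 0.44 (SE 0.15), without overlap. The C2C12 libraries held 409, 572, 515 and 513 CPM at day 0, 469, 460.2, 509 and 495 CPM at day 1 and 392, 332, 374 and 361 CPM at day 6. Days 0 and 1 overlapped, and day 6 lay below both without overlap, at -0.46 (SE 0.08) against day 0.

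POSTN, the gene of periostin, a fasciclin-domain protein that binds integrins and collagen, gave one of the widest contrasts between the lines. In LHCN-M2 it stood at 39.9, 39.3, 59.4 and 52.0 CPM at day 0, 63.2, 65.8, 54.0 and 63.4 CPM at day 1 and 307, 339, 354 and 342 CPM at day 12. The libraries of days 0 and 1 overlapped, and those of day 12 lay far above both. Day 12 stood above day 0 by 2.81 (SE 0.13), a 7.04-fold difference, and above day 1 by 2.45 (SE 0.13). Day 1 differed from day 0 by 0.37 (SE 0.12), and by 0.29 without replicate 1 of day 0. In C2C12 the libraries held 779, 852, 792 and 803 CPM at day 0, 818, 884, 764 and 847 CPM at day 1 and 314, 311, 298 and 302 CPM at day 6. Days 0 and 1 overlapped with a log2 difference of 0.04 (SE 0.05), while the difference of day 6 from day 0 was -1.40 (SE 0.05), with no overlap. The promoter shown above with its TATAAA is that of the mouse gene; the human gene lies at chr13:37562583-37598844 on the minus strand.

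CILP, a secreted protein first described in cartilage that binds TGF-beta 1, showed the largest change of the set in C2C12. In LHCN-M2 it was also higher at the later days, but at a very low level. In C2C12 the libraries held 1.31, 1.30, 0.899 and 0.928 CPM at day 0, 58.9, 40.9, 34.6 and 49.9 CPM at day 1 and 269, 248, 252 and 261 CPM at day 6. No days overlapped. The log2 fold change was 5.37 (SE 0.16) for day 1 against day 0, 2.48 (SE 0.11) for day 6 against day 1 and 7.85 (SE 0.16) for day 6 against day 0, the last a 231-fold difference. In LHCN-M2 the counts were 0, 2, 0 and 0 at day 0, 4, 4, 8 and 6 at day 1 and 16, 12, 14 and 10 at day 12, which was below the filter on low counts. The 52 counts of day 12 against the 2 counts of day 0 gave a ratio of 26.2 per sequenced count, with a 95% counting interval of 6.90 to 222, and the 52 of day 12 against the 22 of day 1 a ratio of 2.58 (1.54 to 4.47). The LHCN-M2 level stayed at 0.33 ± 0.07 CPM even at day 12.

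CTHRC1, a secreted protein known from injured arteries and activated fibroblasts, went in opposite directions at the last day of the lines, at low level in both. In C2C12 the libraries held 0.631, 0.301, 0.3 and 0.318 CPM at day 0, 0.581, 0.72, 0.138 and 0.463 CPM at day 1 and 9.26, 11.3, 11.2 and 9.81 CPM at day 6. Days 0 and 1 overlapped and every day 6 library lay above them. Day 6 stood above day 0 by 4.71 (SE 0.31), a 26.2-fold difference, and day 1 differed from day 0 by 0.27 (SE 0.37). In LHCN-M2 the libraries held 13.5, 16.0, 14.0 and 10.2 CPM at day 0, 12.4, 13.6, 11.4 and 13.4 CPM at day 1 and 5.60, 3.03, 3.00 and 3.24 CPM at day 12. All of day 12 lay below both earlier days, and its highest library was replicate 1, one of the pair that stood apart. The log2 difference of day 12 from day 0 was -1.84 (SE 0.20), and -1.99 without that pair.

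FBLN1, a calcium-binding glycoprotein of elastic fibres and basement membranes that also binds fibronectin, was the gene of the set whose change from day 0 to the last day was most alike in the lines. In LHCN-M2 the libraries held 81.0, 96.5, 77.5 and 82.6 CPM at day 0, 77.8, 68.0, 82.0 and 75.6 CPM at day 1 and 14.3, 13.8, 15.3 and 12.5 CPM at day 12. Days 0 and 1 overlapped and day 12 lay below both. In C2C12 they held 169, 188, 176 and 184 CPM at day 0, 104, 82.7, 92.0 and 85.9 CPM at day 1 and 30.9, 31.8, 27.3 and 30.0 CPM at day 6, with no overlap between any 2 days. The log2 difference of the last day from day 0 was -2.60 (SE 0.10) in LHCN-M2 and -2.58 (SE 0.07) in C2C12. At day 1 the difference from day 0 was -0.15 (SE 0.09) in LHCN-M2 and -0.98 (SE 0.07) in C2C12. At the last day against day 1 it was -2.44 (SE 0.10) in LHCN-M2 and -1.60 (SE 0.07) in C2C12.

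**Figure D3:**
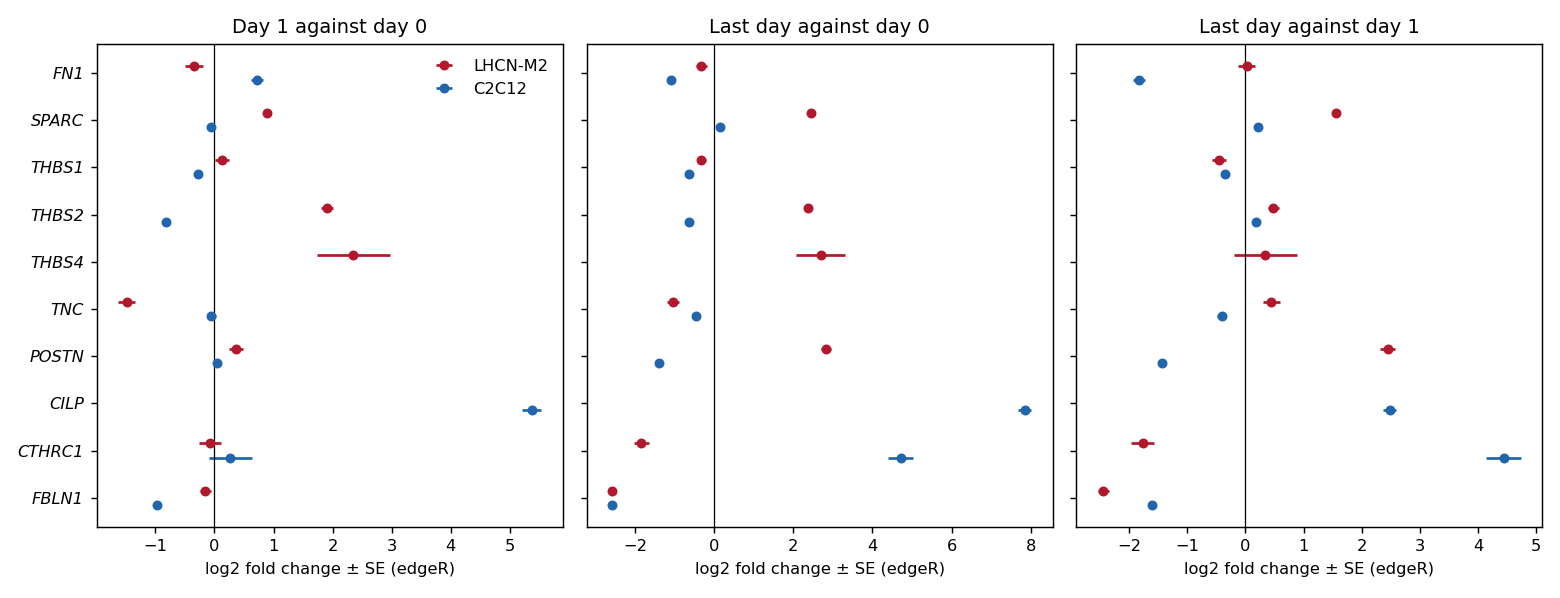
Log2 fold change with its SE (horizontal axis) of each gene in 3 comparisons, with LHCN-M2 in red above C2C12 in blue on each line. A gene that did not pass the filter on low counts in a line (THBS4 in C2C12, CILP in LHCN-M2) has no point there. SPARC, THBS2 and POSTN lie to the right in LHCN-M2 at the last day, and CILP and CTHRC1 to the right in C2C12, while the FBLN1 points of the lines nearly coincide against day 0.

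The filter on low counts passed 9 of the 10 genes in each line, and the counts below cover those 9. In LHCN-M2, 4 were higher and 1 lower at day 1 against day 0, where 23.4% of all tested genes were called higher and 23.5% lower. At day 12 against day 0, 4 were higher and 4 lower, against 27.1% and 27.5% of all tested genes, and at day 12 against day 1, 4 were higher and 3 lower, against 20.9% and 18.8%. In C2C12, 2 were higher and 3 lower at day 1 against day 0, where 25.9% and 24.4% of all tested genes were. At day 6 against day 0, 3 were higher and 6 lower, against 33.1% and 32.5%, and at day 6 against day 1, 4 were higher and 5 lower, against 32.8% and 28.6%. Called in either direction were 46.9%, 54.6% and 39.8% of all tested LHCN-M2 genes at day 1 against day 0, day 12 against day 0 and day 12 against day 1, and 50.3%, 65.6% and 61.4% of all tested C2C12 genes at day 1 against day 0, day 6 against day 0 and day 6 against day 1. In the same order of comparisons, libraries of the days did not overlap for 4, 7 and 7 of the 9 genes in LHCN-M2, against 43.6%, 48.6% and 45.8% of all tested genes, and for 6, 9 and 9 of the 9 in C2C12, against 45.7%, 59% and 56.7%. Since the levels chose the genes, nothing is read from these counts.

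The order of the genes by CPM per kilobase of deposited gene length changed over the days. In LHCN-M2 at day 0 it was FN1 at 1289.7, THBS1 at 658 and SPARC at 321 CPM per kilobase, and then FBLN1, POSTN, TNC, THBS2 and CTHRC1 between 11.6 and 7.55, where each overlapped its neighbour in the order, with THBS4 and CILP last. At day 12 of LHCN-M2, SPARC came first at 1749.9, followed by FN1 at 1030.0, THBS1 at 524, POSTN at 61.4 and THBS2 at 41.1 CPM per kilobase. TNC, CTHRC1 and FBLN1 stood at 4.08, 2.09 and 1.92, and the last 2 of these overlapped. In C2C12 SPARC came first on every day, at 1579.6, 1510.3 and 1754 CPM per kilobase at days 0, 1 and 6. FN1 and THBS1 followed at 565 and 429.7 at day 0, where they overlapped, and at 265 and 278 at day 6, where they overlapped again in the other order. CILP stood next to CTHRC1 near the bottom at day 0, at 0.261, and at day 6, at 60.6 CPM per kilobase, it came directly after FN1 and above TNC, THBS2 and POSTN.

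The change of each gene in LHCN-M2 minus that in C2C12 was estimated in a fit of all 24 libraries, over symbols found once in each table. It is a description for the 8 genes measured in both. Scaling factors were computed anew over the symbols of this fit. The values therefore differ from a subtraction of the fold changes given above for each line. The last days, 12 and 6, are not the same time. Against day 0, the last-day difference was 4.35 (SE 0.14) for POSTN, 3.16 (SE 0.13) for THBS2 and 2.44 (SE 0.07) for SPARC. For these 3 genes the change from day 0 was more positive in the human line, and levels were not compared between the lines. It was -6.41 (SE 0.38) for CTHRC1, the widest of all and in the other direction. Smaller differences were 0.91 (SE 0.21) for FN1, 0.44 (SE 0.15) for THBS1 and -0.44 (SE 0.18) for TNC. For FBLN1 it was 0.13 (SE 0.12), near its SE, while the separate fits gave -2.60 in LHCN-M2 and -2.58 in C2C12. Of 10956 symbols tested, 36% had a called difference upward and 34.6% one downward in this comparison (70.5% in either direction). At day 1 against day 0 the difference was 2.79 (SE 0.12) for THBS2, 1.04 (SE 0.07) for SPARC, 0.90 (SE 0.11) for FBLN1, 0.49 (SE 0.15) for THBS1 and 0.40 (SE 0.14) for POSTN. It was -1.36 (SE 0.18) for TNC, -0.999 (SE 0.21) for FN1 and -0.27 (SE 0.44) for CTHRC1, and 29.1% of symbols were called upward and 30.3% downward (59.3% in either direction). At the last day against day 1 it was 3.95 (SE 0.14) for POSTN, 1.91 (SE 0.21) for FN1, 1.40 (SE 0.07) for SPARC, 0.92 (SE 0.18) for TNC and 0.37 (SE 0.12) for THBS2. It was -6.14 (SE 0.37) for CTHRC1, -0.77 (SE 0.12) for FBLN1 and -0.05 (SE 0.15) for THBS1, and 30.1% were called upward and 26% downward (56.2% in either direction). FN1 thus had a negative difference over the first day and a positive one after it, and THBS1 was the gene most alike in the lines after day 1.

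**Figure D4:**
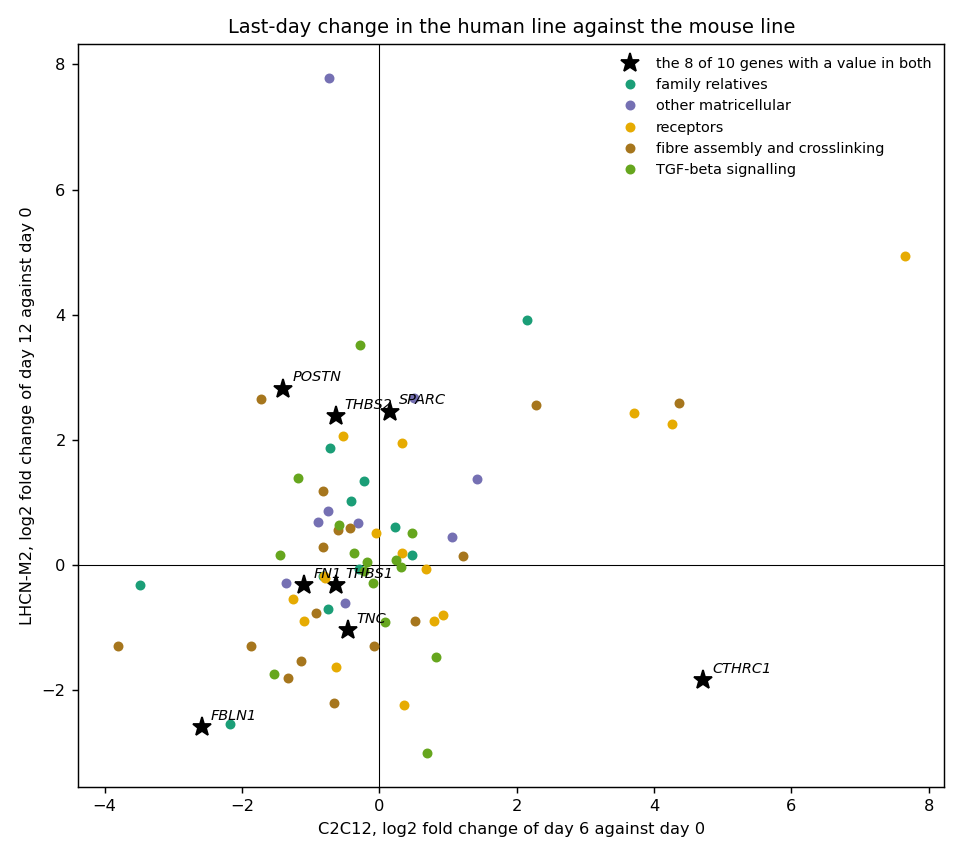
Log2 fold change of the last day against day 0 in LHCN-M2 (vertical axis, day 12) against that in C2C12 (horizontal axis, day 6), with 1 point per gene. Stars are the 8 genes of the set measured in both lines, and dots the list genes measured in both, by list. POSTN and THBS2 lie at upper left, CTHRC1 at lower right and FBLN1 at lower left, near the dot of TGFBI.

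The course of each gene was also set against all genes with at least 10 CPM on some day, by the root-mean-square difference of centred log2 CPM over the 12 libraries of a line (10382 genes in LHCN-M2 and 10254 in C2C12). The genes nearest to SPARC in LHCN-M2 were CPE (0.11) and ADAMTS14 (0.15), those nearest to POSTN were SETD7 (0.19) and IGFBP3 (0.21), and those nearest to THBS2 were LBH (0.10) and TNFAIP2 (0.11). FBLN1 was nearest to TGFBI (0.20) and OLFML3 (0.25), CTHRC1 to IKBKE (0.25) and P3H3 (0.27), TNC to NEMP1 (0.10) and SMC2 (0.11), FN1 to CREB3L2 (0.08) and ANKRD11 (0.08), and THBS1 to ARHGAP35 (0.06) and GALNT5 (0.06). In C2C12, FN1 was nearest to Ttc28 (0.07) and the collagen gene Col12a1 (0.07), and POSTN to Gm2115 (0.07) and the growth factor gene Hgf (0.11). CILP was furthest from its nearest genes, Cck (0.69) and the cardiac actin gene Actc1 (0.92), although their Pearson correlations with it were 0.979 and 0.980. A wide range by itself can raise this measure, and a narrow one can lower it. In C2C12 the day means of CILP spanned 7.82 on the log2 scale, against 0.216 for SPARC. CTHRC1 was nearest to Itgb1bp2 (0.50) and Cmah (0.52), FBLN1 to Dclk2 (0.16) and S1pr1 (0.18), and THBS2 to Zfp365 (0.08) and Abcc1 (0.09). SPARC was nearest to Gtf3c3 (0.04) and Slc44a2 (0.05), THBS1 to Ppp6r2 (0.06) and Rmnd5a (0.06), and TNC to Pcnx (0.07) and Dzip1l (0.07). Within the set, the closest pair of C2C12 was THBS1 with TNC (0.11), and the closest pairs of LHCN-M2 were FN1 with THBS1 (0.24), SPARC with POSTN (0.42) and CTHRC1 with FBLN1 (0.42). The day means of FN1 and THBS1 spanned only 0.311 and 0.460 in LHCN-M2. Both genes were low in the pair of libraries that stood apart. All 12 libraries share the days and their depth, so likeness here describes a course and no more.

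Relatives of the 10 genes, their receptors and the proteins that build fibres around them were taken from 5 lists of 86 genes, 76 of which passed the filter in each line, and are no members of the set. The lists were drawn up with results of these data known and the named genes picked by size of change, so their adjusted p-values, taken over all tested genes, are no independent evidence. At day 12 against day 0 of LHCN-M2, 32 of the 76 rose and 27 fell, where 27.1% of all tested genes were called higher and 27.5% lower. At day 6 against day 0 of C2C12, 26 of the 76 rose and 43 fell, where 33.1% of all tested genes were called higher and 32.5% lower. Fibre assembly and crosslinking genes had 4 higher and 12 lower of 17 in C2C12 (median log2 fold change -0.71, against -0.03 over all tested genes). In LHCN-M2 that list had 8 higher and 9 lower of 19 (median 0.13, against -0.01 over all tested genes). Family relatives had 6 higher and 4 lower of 15 in LHCN-M2 (median 0.60) and 3 higher and 10 lower of 15 in C2C12 (median -0.41). Other matricellular genes had 7 higher and 2 lower of 10 in LHCN-M2 (median 0.68) and 5 higher and 6 lower of 12 in C2C12 (median -0.27).

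Among the family relatives, COMP, the cartilage thrombospondin, rose in LHCN-M2 to 21.1 ± 3.02 CPM at day 12, against 0.254 ± 0.223 CPM at day 0 (edgeR adjusted p = 1.62e-08). FSTL1, a SPARC relative, rose in LHCN-M2 by 1.34 on the log2 scale and fell by 0.23 in C2C12 (edgeR adjusted p = 7.68e-11 and 5.77e-05). TGFBI, the fasciclin relative of periostin, did not follow POSTN in LHCN-M2: it fell to 915 ± 20.8 CPM at day 12, against 5353 ± 432 CPM at day 0 (edgeR adjusted p = 1.74e-13), while POSTN stood higher there. In C2C12 both were lower at day 6 than at day 0. The fibulin relative EFEMP1 fell by 3.49 in C2C12 (edgeR adjusted p = 1.03e-12), FBLN7 fell by 0.82, and FBLN5 rose by 0.47 (edgeR adjusted p = 9.62e-08 and 2.09e-05), beside the lower FBLN1. SPOCK1, another SPARC relative, fell by 0.76 in LHCN-M2 at day 12 (edgeR adjusted p = 1.01e-05). Of the other matricellular genes, EDIL3 rose in both lines, by 1.37 in LHCN-M2 and 1.43 in C2C12, and MGP rose in C2C12 to 298 ± 21.8 CPM at day 6, against 74.2 ± 6.43 CPM at day 0 (edgeR adjusted p = 2.52e-08, 9.73e-14 and 1.24e-14). CCN1 fell by 0.61 in LHCN-M2, and ECM1 fell by 0.29 in LHCN-M2 and fell by 1.36 in C2C12, the LHCN-M2 value losing its call without replicate 2 of day 12, at -0.23 with an edgeR adjusted p of 0.054 (edgeR adjusted p = 2.44e-06, 0.0133 and 6.93e-14).

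Receptors of these proteins moved in both directions. CD36, which binds THBS1 and takes up fatty acids, rose in LHCN-M2 to 41.8 ± 0.757 CPM at day 12, against 1.37 ± 0.486 CPM at day 0, and in C2C12 to 11.8 ± 1.38 CPM at day 6, against 0.0529 ± 0.0716 CPM at day 0 (edgeR adjusted p = 3.46e-11 and 7.84e-12), while THBS1 stood lower in both. ITGA5, the integrin chain that assembles fibronectin, fell by 1.10 on the log2 scale at day 6 of C2C12 (edgeR adjusted p = 7.93e-12), beside the lower FN1, and ITGA4, another fibronectin receptor chain, rose by 4.26 there (edgeR adjusted p = 6.09e-13). In LHCN-M2, ITGA5 fell by 0.90 and ITGA4 rose by 2.25 at day 12 (edgeR adjusted p = 4.39e-08 and 2.11e-08). The receptor list as a whole had 7 higher and 7 lower of 17 in LHCN-M2 (median -0.08) and 9 higher and 7 lower of 17 in C2C12 (median 0.32). Of all tested genes, 27.1% were called higher and 27.5% lower in LHCN-M2 (median -0.01). In C2C12 it was 33.1% and 32.5% (median -0.03).

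Of the fibre genes, elastin (ELN) rose furthest in LHCN-M2, to 593 ± 30.4 CPM at day 12, against 5.97 ± 1.08 CPM at day 0 (edgeR adjusted p = 2.28e-14), beside the lower FBLN1, a component of elastic fibres. The elastic-fibre genes MFAP5 and EMILIN1 moved apart in C2C12, MFAP5 rising by 4.37 and EMILIN1 with a change of -3.81 on the log2 scale (edgeR adjusted p = 2.24e-16 and 1.98e-19). TGM2, the transglutaminase that crosslinks fibronectin, fell by 1.80 in LHCN-M2 and fell by 1.33 in C2C12 (edgeR adjusted p = 3.67e-11 and 5.04e-13). In the TGF-beta list, whose pathway is known to induce FN1, POSTN and CTHRC1, 4 of 15 genes rose and 5 fell in LHCN-M2 (median 0.04), and 5 rose and 8 fell in C2C12 (median -0.17), beside 27.1% higher and 27.5% lower of all tested LHCN-M2 genes and 33.1% higher and 32.5% lower of all tested C2C12 genes. The ligand TGFB3 rose in LHCN-M2 by 3.52 and the receptor TGFBR2 fell by 1.48, while TGFBR2 rose by 0.83 in C2C12 (edgeR adjusted p = 3.67e-11, 3.19e-08 and 2.04e-10).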

How the data were processed

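Polyadenylated RNA of 24 libraries was counted per gene. The 2 deposited tables hold raw counts, 1 column per library, with no normalization by the authors. The tools listed per the submitters' processing notes are featureCounts 2.0.6, StringTie 2.2.3, HISAT2 2.2.1 and fastp, with GRCh38, hg38 and mm10 as builds. No source used here gives the annotation release or the strand setting, so a gene and an antisense gene over it may share reads. Coordinates of the mouse table are not used.

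Counts were tested in R 4.3.3 with edgeR 4.0.16 (filterByExpr, TMM, quasi-likelihood test, Benjamini-Hochberg over 18214 LHCN-M2 and 17065 C2C12 genes, threshold 0.05), with all 12 libraries of a line in 1 fit. SE is the log2 fold change over the root of F. The difference between the lines is an interaction in 1 fit of all 24 libraries over 10956 symbols. Its TMM factors were computed within each line over these symbols, so they differ from those of the fits per line. CPM were computed from the deposited counts. Counting intervals (95%, exact) and floors (3 counts) cover counting error only. Per pair of libraries of a group, the chi-square per degree of freedom was 6.52 to 171 in LHCN-M2 and 7.19 to 26.1 in C2C12, so none agreed within sampling noise. Scripts were tested on simulated data.

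The 10 genes, the lists and the tests were chosen with earlier results of these data known. List genes are named by a rule: up to 2 higher and 2 lower per list and line at the last day against day 0, by size of change, among those past the threshold, with 10 CPM on some day and no overlap of libraries. Of the 32 named genes the text gives those that bear on the set; 1 further gene that met the rule is not reported here. Alternatives were DESeq2 1.42.0, its size factors, no filter, a stricter filter (10 CPM in 4 libraries), only the 2 days compared, a replicate block, and leaving out each library.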

Additional observations from a re-analysis of the deposited data

Results flagged for a closer look

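Of 57 groups of 4 libraries examined for the 10 genes, 9 had a library far from the other 3; chance alone would single out a library in about 1 of 20 groups. In LHCN-M2 these were the lowest FN1 library of day 12 (replicate 1, 13754 CPM, others 18984 to 19471), the lowest THBS1 libraries of day 0 (replicate 2, 4167 CPM, others 6524 to 6891) and day 12 (replicate 1, 4405 CPM, others 4909 to 4961), and the lowest TNC library of day 0 (replicate 2, 51.9 CPM, others 88.8 to 95.1). These values all come from the pair of libraries that stood apart on the third principal component; the reason was not tested. Further in LHCN-M2 were the highest CTHRC1 library of day 12 (replicate 1, 5.60 CPM, others 3.00 to 3.24), the highest CILP library of day 0 (replicate 2, 0.0530 CPM, others 0) and the lowest CILP library of day 12 (replicate 4, 0.225 CPM, others 0.360 to 0.368), the last 2 at a handful of counts. In C2C12 they were the lowest THBS1 library of day 1 (replicate 2, 2095 CPM, others 2155 to 2165) and the highest CTHRC1 library of day 0 (replicate 1, 0.631 CPM, others 0.300 to 0.318).

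For SPARC, THBS2, POSTN, CTHRC1 and TNC, in the comparisons named here, the libraries of the 2 days did not overlap in either line and lay in opposite order, and whether the lines differ was not tested. For SPARC in C2C12 the days were nearly touching, with a highest library of 5925 CPM at day 1 and a lowest of 5930.4 CPM at day 0. In the fit of all 24 libraries, the LHCN-M2 change minus the C2C12 change was 1.04 for SPARC and 2.79 for THBS2 at day 1 against day 0. At the last day against day 0 it was 3.16 for THBS2, 4.35 for POSTN and -6.41 for CTHRC1. At the last day against day 1 it was 0.92 for TNC, 3.95 for POSTN and -6.14 for CTHRC1.

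Among the 28 named list genes tested for the difference between the lines at the last day against day 0, 23 passed the interaction test of edgeR (adjusted p at most 0.00398), where 70.5% of all 10956 symbols did. These genes had been picked for a large change in at least 1 line. The LHCN-M2 change was relatively higher for LOXL4 (4.52), TGFB3 (3.93), EFEMP1 (3.32), TGFB2 (2.72), EMILIN1 (2.66), TGFBR3 (1.76), IGFBP7 (1.73), FSTL1 (1.71), ECM1 (1.22), ITGA3 (0.86), FBLN7 (0.79), LTBP2 (0.72) and ITGA5 (0.35). It was relatively lower for CD36 (-2.58), SDC1 (-2.47), TGFBR2 (-2.17), ITGA4 (-1.87), MFAP5 (-1.64), SDC4 (-1.56), LOXL3 (-1.40), ITGB6 (-1.15), LOXL2 (-0.95) and TGM2 (-0.33).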

How the results depend on the processing

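No fold change of the 10 genes that was called with all libraries changed sign under the alternatives that were run. The count of genes of the set called lower at day 1 against day 0 of LHCN-M2 was 1, and it was 2 with no filter on low counts and without the pair of libraries that stood apart, an alternative chosen after seeing the data; leaving out 1 library gave 1 to 2. With the stricter filter, genes called higher were 3256 in place of 4935 at day 12 against day 0 of LHCN-M2 and 3735 in place of 5650 at day 6 against day 0 of C2C12, where fewer genes were tested. Genes of the set called higher were then 1 in place of 3 at day 6 against day 0 of C2C12, and 2 in place of 4 at day 6 against day 1; CTHRC1 did not pass that filter. These counts describe genes chosen on the same levels. Some calls in the set were lost in fits that left out 1 library. In LHCN-M2 these were POSTN (day 1 against day 0) and, in several such fits each, THBS1 (day 12 against day 0) and TNC (day 12 against day 1). The calls of POSTN and THBS1 were also lost with only the 2 days compared, and that of THBS1 with the stricter filter. In C2C12 it was THBS2 (day 6 against day 1), in most such fits and with the stricter filter. Of the genes named as most alike, 2 of 34 were also named by Pearson correlation, so that list depends on the measure. Replicates with the same number did not deviate together (correlations of -0.10 to 0.0914 between days), and the fit with the replicate block gave 4758 genes higher and 4744 lower at day 12 against day 0 of LHCN-M2, against 4935 and 5006 without it; the counts among the 10 genes were the same under it. Depth limits THBS4 in both lines and CILP in LHCN-M2, which rest on few or no counts.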
